A study of Homo sapiens with 6 samples.

Results

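The interleukins and LIF considered here are 10 cytokine genes, IL1A, IL1B, IL6, IL7, IL11, IL15, IL18, IL24, IL32 and LIF, taken by name from the 20461 genes of the deposited expression table, and all 10 were found in it. The cells were PANC1, an established human pancreatic carcinoma line. They were grown for 24 h and then given either vehicle (0.1% DMSO) or 50 nM gemcitabine, a nucleoside analogue used against pancreatic cancer, for 48 h, and both conditions shared the line and the medium. RNA-seq of mRNA gave 2 libraries per condition, described by the study as biological replicates, and DNaseI-seq, which finds open chromatin by its sensitivity to the nuclease DNaseI, gave 1 library per condition. The comparison asked which genes changed their expression in response to the drug.

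Interleukins are secreted proteins that carry signals between cells, many of them in inflammation. IL-1α, IL-1β and IL-18 belong to the IL-1 family and signal through receptors that use the adaptor MyD88, whereas IL-6, IL-11 and LIF share the receptor subunit gp130 (IL6ST) and signal through JAK kinases to STAT3. IL-7 and IL-15 use the common gamma chain (IL2RG), IL-24 is a member of the IL-10 family, and IL-32 is a cytokine unrelated to these families. Several of these cytokines are made by carcinoma cells as well as by leukocytes.

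Gemcitabine-treated PANC1 cells held more mRNA of 7 of the 10 genes. IL1B, IL24, IL18, IL11, LIF, IL6 and IL32 rose by 0.98 to 1.86 on the log2 scale, and 0 of the 10 fell. To be called, a gene needed an adjusted p under 0.05 (edgeR's quasi-likelihood test on fragment counts, Benjamini-Hochberg adjustment over 14854 genes) and a fold change above 1.5. It also needed a mean of 0.1 FPKM (fragments divided by transcript length in kilobases and by library size) in 1 condition and a difference of at least 1 FPKM between the means. By the same rule 845 of all genes tested were called higher, or 5.69%, and 658 were called lower, or 4.43%, which is 10.1% in either direction. On the adjusted p alone 8 of the 10 passed, against 38.5% of all genes. In scaled fragment counts 9 of the 10, all but IL15, were higher in both gemcitabine libraries than in both vehicle libraries, against 35.0% of all genes. The median log2 fold change was 1.15 over the 10 genes and 0.01 over all genes tested. The 10 genes were chosen with earlier results of these data known, so these shares are descriptions and not a test of the set. All 10 passed the filter of at least 10 fragments over the 4 libraries. The sum of the 10 genes' levels was 87.7 and 86.3 FPKM in the vehicle libraries and 190 and 190 FPKM in the gemcitabine libraries. Because RNA was taken from whole cultures, more expressing cells and more RNA per cell cannot be told apart. Fits of limma to log2(FPKM + 1) and to log2(FPKM + 0.1) without a filter on low values called 0 of the 10 genes and 0 of all genes, with 7 and 6 of the 10 at an unadjusted p under 0.05, and the fit to genes with a mean of at least 0.1 FPKM called 6 of the 10, the same 7 without IL24.

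**Figure D1:**
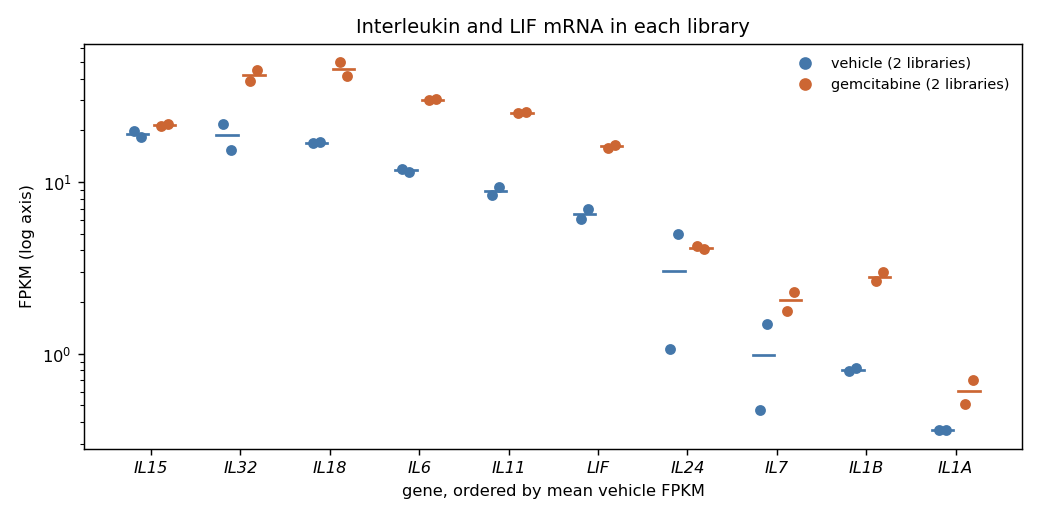
Each point is 1 RNA-seq library and each bar the mean of 2, in FPKM on a log axis, for the 10 genes ordered by their mean vehicle level. In FPKM every gene but IL24 sits higher in both gemcitabine libraries than in both vehicle libraries. IL15 separates only narrowly on this axis, and the vehicle points of IL24 and IL7 lie far apart.

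**Figure D2:**
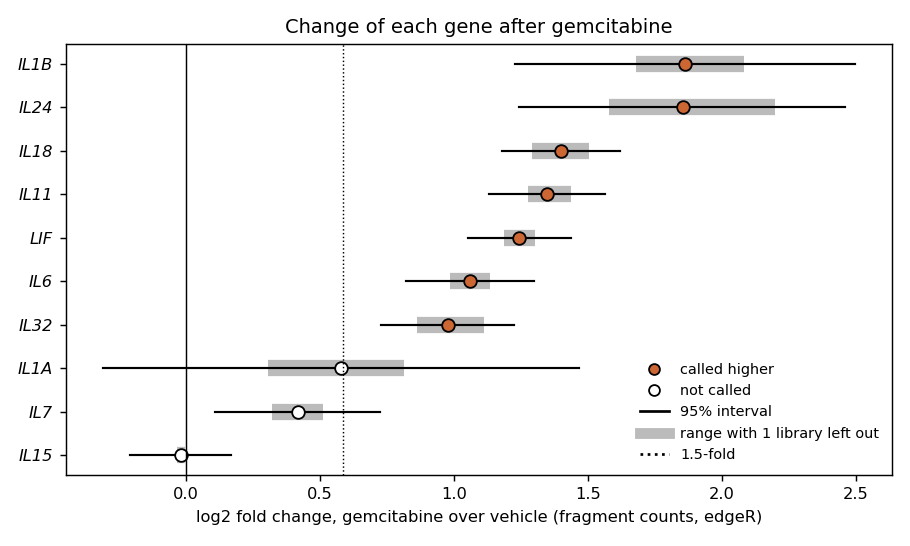
Points give the log2 fold change of each gene from fragment counts, black lines its 95% interval and grey bars the range of the estimate with 1 library left out in turn. The 7 called genes lie to the right of the dotted line at 1.5-fold, and the interval of IL15 (-0.21 to 0.17) and that of IL1A (-0.31 to 1.47) include 0.

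The IL-1 family was led by IL18, which is made as an inactive precursor and cut by caspase-1. IL18 (ENSG00000150782) read 16.8 and 17.1 FPKM in the vehicle libraries and 49.8 and 41.2 FPKM in the gemcitabine libraries. Both gemcitabine values lay above both vehicle values. On fragment counts, 223 and 243 against 616 and 522, its log2 fold change was 1.40 (SE 0.10, edgeR adjusted p = 2.25e-07). IL1B, the secreted IL-1 that also needs a protease to become active, was far scarcer. IL1B (ENSG00000125538) read 0.790 and 0.824 FPKM with vehicle and 2.64 and 2.99 FPKM with gemcitabine, from 19 and 15 against 56 and 59 fragments. The groups did not overlap, and the log2 fold change of 1.86 (SE 0.30, edgeR adjusted p = 0.000193) was the highest estimate of the 10. However, its 95% interval of 1.23 to 2.50 overlaps those of IL24, IL18, IL11, LIF, IL6 and IL1A. IL1A, the IL-1 that is active as a precursor, was at the lower edge of what these libraries could count. IL1A (ENSG00000115008) had 12 and 14 fragments with vehicle and 15 and 21 with gemcitabine, which is 0.358 and 0.362 against 0.509 and 0.701 FPKM. Its values did not overlap after scaling, but the estimate of 0.58 (SE 0.42, edgeR adjusted p = 0.293) did not pass the test, and at this depth neither a doubling nor no change lies outside its interval. The sequence upstream of IL1B is shown because IL1B had the highest estimate of the 10. It was read from the hg19 genome at chr2:113594394-113594606, on the minus strand, and is written 5′ to 3′ along the gene. Capitals mark a match to the C/EBP motif TTGCNNAA and then a match to the STAT motif TTCNNNGAA.
IL1B: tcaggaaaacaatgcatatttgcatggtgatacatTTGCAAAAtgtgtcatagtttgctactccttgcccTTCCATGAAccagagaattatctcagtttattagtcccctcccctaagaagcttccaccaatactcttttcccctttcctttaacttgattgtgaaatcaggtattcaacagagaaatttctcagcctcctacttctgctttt

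The 3 gp130 cytokines rose together. IL6, the inflammatory cytokine that induces the acute-phase response, read 11.9 and 11.5 FPKM with vehicle and 30.03 and 30.39 FPKM with gemcitabine (ENSG00000136244). Its log2 fold change on fragments, 181 and 182 against 372 and 329, was 1.06 (SE 0.11, edgeR adjusted p = 5.19e-06). The gemcitabine libraries were closer to each other in FPKM than in fragments, where their totals were nearly equal, and the conditions did not overlap on either scale. IL11, a cytokine of epithelial and stromal cells that signals through its own receptor and gp130, read 8.42 and 9.38 FPKM with vehicle and 25.2 and 25.5 FPKM with gemcitabine (ENSG00000095752). The log2 fold change was 1.35 (SE 0.10, edgeR adjusted p = 2.76e-07), from 191 and 224 against 491 and 484 fragments. LIF, leukemia inhibitory factor, which signals through LIFR and gp130, read 6.10 and 6.97 FPKM with vehicle and 15.9 and 16.4 FPKM with gemcitabine (ENSG00000128342). Both gemcitabine libraries were again the high ones, and the log2 fold change on 308 and 312 against 712 and 646 fragments was 1.24 (SE 0.09, edgeR adjusted p = 1.96e-07). The mean ratios of FPKM were 2.58 for IL6, 2.85 for IL11 and 2.47 for LIF, while the ratios from fragments were 2.09, 2.54 and 2.37. The 3 genes lie on different chromosomes. The bases upstream of IL6 and IL11 are shown because both rose and IL6 had an open region over its start. They were read from hg19, IL6 at chr7:22766569-22766765 on the plus strand and IL11 at chr19:55881832-55882081 on the minus strand. Capitals mark the C/EBP match and then the NF-kB match in IL6, and the AP-1 match (TGANTCA) in IL11.
IL6: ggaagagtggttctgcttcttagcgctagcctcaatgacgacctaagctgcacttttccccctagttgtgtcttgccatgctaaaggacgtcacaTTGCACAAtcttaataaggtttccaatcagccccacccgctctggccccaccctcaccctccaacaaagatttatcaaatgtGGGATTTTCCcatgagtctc
IL11: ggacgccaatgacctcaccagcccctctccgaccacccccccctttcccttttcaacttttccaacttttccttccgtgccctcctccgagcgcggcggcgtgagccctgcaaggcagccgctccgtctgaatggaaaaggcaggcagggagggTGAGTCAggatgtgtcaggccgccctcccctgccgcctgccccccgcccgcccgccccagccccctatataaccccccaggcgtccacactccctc

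The motifs were chosen after the IL6 sequence had been seen, and both strands of the 250 bases upstream of each gene's start were searched. Only the printed sequences were cut short where an exon of the gene begins. The NF-kB consensus was found 73 to 64 bases before the IL6 start and in no other of the 10 windows, against 11.5% of 18697 windows. AP-1 matches were found in 2 of the 10 (IL1A and IL11) against 4.61% of all windows. C/EBP matches were found in 2 (IL1B and IL6) against 7.01%, STAT matches in 2 (IL1B among them) against 5.61%, and the CRE TGACGTCA in 0 against 2.46%. With 10 windows these counts are descriptions, and no motif searched was found in more than 2 of them.

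The 2 lymphoid growth cytokines behaved differently from the gp130 group. IL15 (ENSG00000164136), which sustains natural killer and memory T cells, had 435 and 460 fragments with vehicle and 416 and 400 with gemcitabine. Its FPKM values were 19.8 and 18.2 against 21.1 and 21.7, and its log2 fold change was -0.02 (SE 0.09, 95% interval -0.21 to 0.17, edgeR adjusted p = 0.886). The interval of IL15 excludes a change of 1.5-fold in either direction. The sign of this estimate turned positive when libraries were scaled by their totals or FPKM was fitted. IL7 (ENSG00000104432), the growth factor of developing lymphocytes, had 130 and 131 fragments with vehicle and 152 and 170 with gemcitabine. Its log2 fold change of 0.42 (SE 0.14, edgeR adjusted p = 0.0326) passed the adjusted p but not the fold, so it was not called, and it lost the adjusted p with DESeq2 (0.191) and in the fits without vehicle library 1 (0.15), vehicle library 2 (0.201) or gemcitabine library 2 (0.12).

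IL24 and IL32 stand outside these families. IL24 (ENSG00000162892), an IL-10 family cytokine that signals through IL20RB and IL22RA1, had 25 and 17 fragments with vehicle and 65 and 76 with gemcitabine, a log2 fold change of 1.85 (SE 0.28, edgeR adjusted p = 0.000143). The FPKM values of IL24 did not separate the conditions, at 1.07 and 4.99 with vehicle and 4.22 and 4.06 with gemcitabine, and vehicle library 2 was the highest of the 4. In the limma fit with a filter its log2 difference was 0.545 (adjusted p = 0.472). Without vehicle library 1 the log2 fold change on fragments was 2.20, but the call was lost because the remaining means differed by less than 1 FPKM, and they ran the other way, at 4.99 FPKM with vehicle and 4.14 FPKM with gemcitabine. IL32 (ENSG00000008517), which is known in humans as a proinflammatory cytokine without a mouse counterpart, read 21.9 and 15.5 FPKM with vehicle and 38.8 and 45.2 FPKM with gemcitabine. Its groups did not overlap, and its log2 fold change on 199 and 175 against 337 and 344 fragments was 0.98 (SE 0.12, edgeR adjusted p = 1.47e-05).

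FPKM in this table depends on which transcripts the authors' program assigned the fragments to. Dividing a gene's fragments by its FPKM and by the library total gives the transcript length that the program in effect used. For IL24 that length was 1.54 kb in vehicle library 1 and 0.216 kb in vehicle library 2, and for IL7 it was 18.2 and 5.56 kb. The other 8 genes kept this length within 1.39-fold over the 4 libraries, whereas IL24 spread 7.12-fold and IL7 3.27-fold. A spread above 3-fold was found in 5.44% of 13896 genes. For these 2 genes the FPKM values of the libraries rest on different lengths, so the fragment counts were compared instead. Whether those counts are free of the same shift was not tested. The IL7 length was above the 2016 bases of its canonical transcript in every library. The call of IL24 still used its FPKM means, 3.03 with vehicle and 4.14 with gemcitabine.

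**Figure D3:**
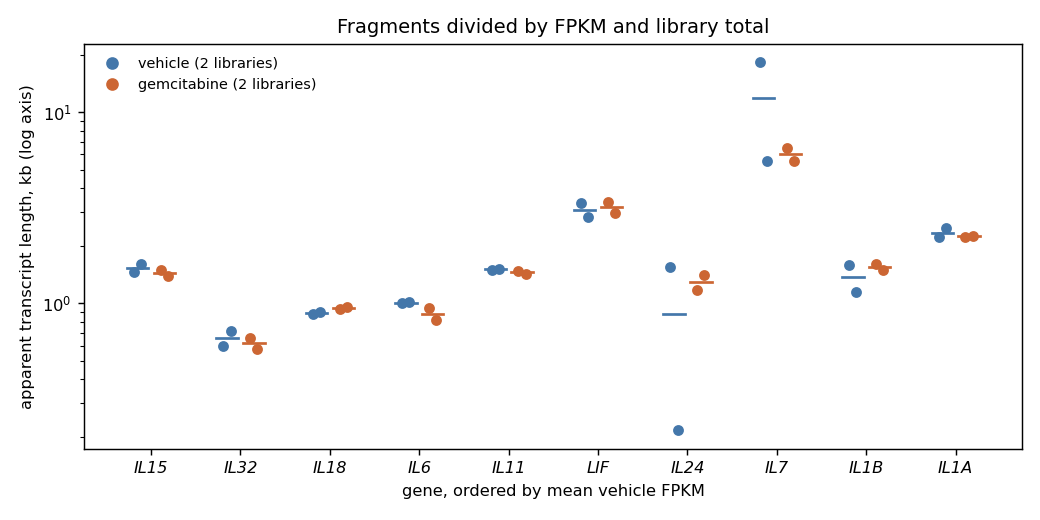
Points give, for each library, the fragments of a gene divided by its FPKM and by the library total, in kb on a log axis, and bars the mean of 2 libraries. IL24 in vehicle library 2 (0.216 kb) and IL7 in vehicle library 1 (18.2 kb) stand apart from the other libraries of the same gene.

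Within vehicle-treated cells the order of levels began with IL15 (19.0 FPKM), IL32 (18.7 FPKM) and IL18 (17.0 FPKM). The values of IL32 (15.5 to 21.9 FPKM) overlapped those of IL15 and of IL18, while IL15 lay above IL18 in both libraries. Next came IL6 (11.7 FPKM), IL11 (8.90 FPKM) and LIF (6.54 FPKM), each separate from its neighbours. IL24, IL7 and IL1B followed with values that overlapped along the order, and IL1A was last at 0.360 FPKM. With gemcitabine IL18 (45.5 FPKM) and IL32 (42.0 FPKM) overlapped at the top, followed by IL6 (30.2 FPKM), IL11 (25.3 FPKM) and IL15 (21.4 FPKM). IL15 thus went from the first place to the fifth while its own level stayed near where it was. LIF (16.1 FPKM) kept the sixth place, and IL24, IL1B, IL7 and IL1A lay below 5 FPKM in every gemcitabine library. Over fragments per kilobase of the canonical transcript, the ranks of IL15 and IL32 changed places with vehicle IL7 moved from the eighth place to the seventh, IL1B from the ninth to the eighth and IL24 from the seventh to the ninth.

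Few of the other interleukin genes had enough fragments to be tested. Of 37 other interleukin genes matched, 18 had 0 fragments in all 4 libraries, which allows up to 3 fragments per library, or 0.190 to 0.227 CPM (counts scaled to library size), and 8 had enough fragments to be tested. EBI3, a subunit shared by IL-27 and IL-35, was the 1 called, with 3 and 11 fragments with vehicle and 20 and 26 with gemcitabine and a log2 fold change of 1.82 (SE 0.51, edgeR adjusted p = 0.0109). EBI3 was called in 2 of the 4 fits with a library left out, with the call lost without vehicle library 1 (adjusted p 0.123) and without gemcitabine library 1, and it was not called with DESeq2 (0.0661). IL12A, which encodes the p35 subunit of IL-12, had 23 and 24 against 11 and 10 fragments and a log2 fold change of -1.04 that missed the threshold (edgeR adjusted p = 0.0513). Of the other gp130 ligands, CLCF1 did not pass the test (log2 fold change 0.15, 95% interval -0.13 to 0.44).

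Of the 15 receptor genes tested 4 passed the adjusted p, all upwards, against 18.5% of all genes tested, and 2 of them were called. IL7R, the alpha chain of the IL-7 receptor, had 2467 and 2525 fragments with vehicle and 3692 and 3989 with gemcitabine and rose by 0.74 on the log2 scale (SE 0.07). IL22RA1, which serves IL-24 among others, had 81 and 73 against 138 and 103 fragments and a log2 fold change of 0.76 (SE 0.19, edgeR adjusted p = 0.00595), and was called in 1 of the 4 fits with a library left out. IL7R was called in all 4. The receptor chains of the gp130 cytokines, named after their values were seen, did not pass the test. IL6ST had a log2 fold change of 0.15 (95% interval -0.02 to 0.33), LIFR of 0.00 (-0.17 to 0.17) and IL6R of -0.11 (-0.40 to 0.17), while IL11RA had 0.43 (0.07 to 0.79, edgeR adjusted p = 0.0538). Of the 5 decoys and antagonists tested 0 were called, and only SIGIRR, an inhibitor of IL-1 family signalling, passed the adjusted p (0.53, edgeR adjusted p = 0.0204), while TOLLIP was at 0.07.

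Genes that process or release IL-1 family cytokines were above 0 in all 11 tested, against 7537 of all 14854 genes tested. Of the 11, 7 passed the adjusted p, against 18.5% of all genes in that direction. The other 3 of the 14 listed fell below the filter on fragments, among them NLRP3, named after its values were seen, with 0 fragments in every library. CASP1, the protease that cuts the IL-1β and IL-18 precursors, was called, with 148 and 122 against 202 and 194 fragments and a log2 fold change of 0.66 (SE 0.14, edgeR adjusted p = 0.00218). Without vehicle library 2 its adjusted p was 0.0845. S100A13, a protein linked to IL-1α release, had 0.47 (SE 0.08) and CAPN1, a calpain, 0.18 (SE 0.07), and both passed the adjusted p without reaching the fold. The median of the 11 was 0.40, below that of the 10 cytokine genes.

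The signalling and target lists each held 1 or 2 called genes, to be read against the 5.69% called higher over all genes tested. In the IL-1 receptor list 2 of 13 were called, IRAK2, a kinase of the MyD88 complex (0.90, SE 0.11), and NFKBIZ, a nuclear IkB family protein that IL-1 induces (0.73, SE 0.19). The median was -0.05. The 1 gene of this list to pass the adjusted p downwards, named after its values were seen, was IRAK1 (-0.37, SE 0.07), another kinase of that complex. IRAK2 was called with each library left out, NFKBIZ in 1 of those 4 fits. In the gp130, JAK and STAT3 list SOCS1, an inhibitor of JAK kinases, was the 1 of 15 called, from 20 and 14 to 39 and 35 fragments (1.23, SE 0.34, edgeR adjusted p = 0.0103). With DESeq2 the adjusted p of SOCS1 was 0.0805. TYK2 passed the adjusted p at 0.36, and STAT3 itself had a log2 fold change of -0.15 (95% interval -0.29 to 0.00). SOCS3 (-0.32) and STAT5B (-0.57), named after their values were seen, passed the adjusted p downwards. Of 13 STAT3 and acute-phase targets LRG1 and SAA1 were called higher, with log2 fold changes of 3.06 (SE 0.48) and 2.60 (SE 0.86). LRG1 had 2 and 8 fragments with vehicle and 47 and 32 with gemcitabine. SAA1 had only 2 and 1 against 14 and 4, was not called with DESeq2 (adjusted p = 0.148), and was called in 1 of the 3 fits with a library left out in which it was tested. In that target list 4 genes passed the adjusted p downwards, against 20% of all genes tested, and its median was -0.11.

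Over these lists 10 of the 91 genes tested outside the 10 cytokines were called, or 11.0% against 10.1% of all genes in either direction, so the share was near the background. They were EBI3, IL7R, IL22RA1, CASP1, IRAK2, NFKBIZ, SOCS1, LRG1, SAA1 and HNRNPD. That count was 6 without vehicle library 1 and 5 without gemcitabine library 1, and IL7R, IRAK2 and LRG1 were called in all 4 fits with a library left out.

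**Figure D4:**
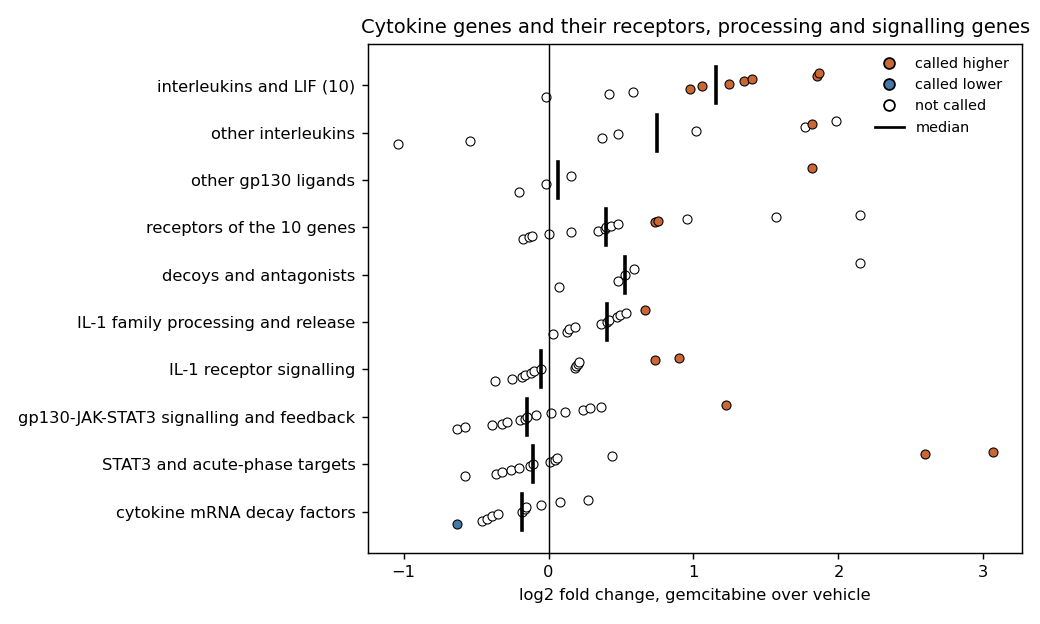
Each point is 1 tested gene, placed by its log2 fold change on fragment counts, in rows for the 10 genes and each related list, with black bars at the medians. The 10 genes have the highest median (1.15), while the signalling, target and decay lists have medians between -0.18 and -0.05.

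Many short-lived cytokine mRNAs carry AUUUA sequences in the 3′ untranslated region, where decay factors bind. Per kilobase of the canonical transcript's 3′ untranslated region, IL6 held 14.0 of them, IL1B 9.79 and IL11 5.53, all above the 90th percentile of 17535 transcripts (4.88). IL1A held 4.37, IL7 4.24, IL15 3.50, IL24 2.77 and LIF 2.19, above the median of 1.67, and IL18 and IL32 held 0. The untranslated regions of IL18 and IL32 were short, at 339 and 178 bases, so a count of 0 there says little. Whether these sequences or the decay factors had a part in the changes was not tested. Of the 11 genes tested in the decay factor list 6 passed the adjusted p downwards, against 20% of all genes tested, and 0 upwards. The 6 include ELAVL1 (-0.39, edgeR adjusted p = 0.000466), named after its values were seen, which is known to stabilize mRNAs with these sequences. HNRNPD, or AUF1, which binds these sequences, was called lower, from 6125 and 6105 to 3397 and 3887 fragments (-0.63, SE 0.08), a call lost on the fold when libraries were scaled by totals (-0.52) and without gemcitabine library 1 (-0.525). KHSRP, another such factor, had a log2 fold change of -0.43 (SE 0.07).

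The DNaseI data had 1 library per condition, so differences between the peak lists have no replicate check and no test. The lists held 9606 vehicle and 10695 gemcitabine peaks in hg19, scored by MACS as -10 times the log10 of the p-value, with a lowest score of 50. Within 5 kb of a start site 3 of the 10 genes had a gemcitabine peak and 1 had a vehicle peak, against 25.9% and 22.4% of 18697 genes. IL6 had a gemcitabine peak at chr7:22766208-22767271 with a score of 115, which covered the start site and the whole upstream sequence printed above. The nearest vehicle peak at IL6 lay 8.49 kb upstream of the start, with a score of 56.8. IL18 had a gemcitabine peak over its start, with a score of 54.1, close to the lowest score listed, and no vehicle peak within 5 kb. An intronic region of IL18 about 6.21 kb into the gene was in both lists, at 86.5 with vehicle and 51.0 with gemcitabine. IL24 had a peak 0.56 kb before its start with vehicle and 0.65 kb before it with gemcitabine, at 82.9 and 98.6, so its upstream region was open in both. IL11 had a shared peak 14.5 kb upstream at 136 with vehicle and 69.1 with gemcitabine. The other 6 genes, LIF and IL32 among those that rose, had no peak within 20 kb in either list. IL15 was among them at a mean of 19.0 FPKM with vehicle, so lack of a listed peak does not show a closed start. The study added published PANC1 peaks to its own lists to raise its sensitivity, and those were not used here. A peak in 1 list only was found for 9.06% of all genes with gemcitabine within the same distance, and 2 of these 10 genes were such cases. Within 10 kb 0 of the 10 were, against 9.99% of all genes, since IL6 and IL18 then had a vehicle peak as well.

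**Figure D5:**
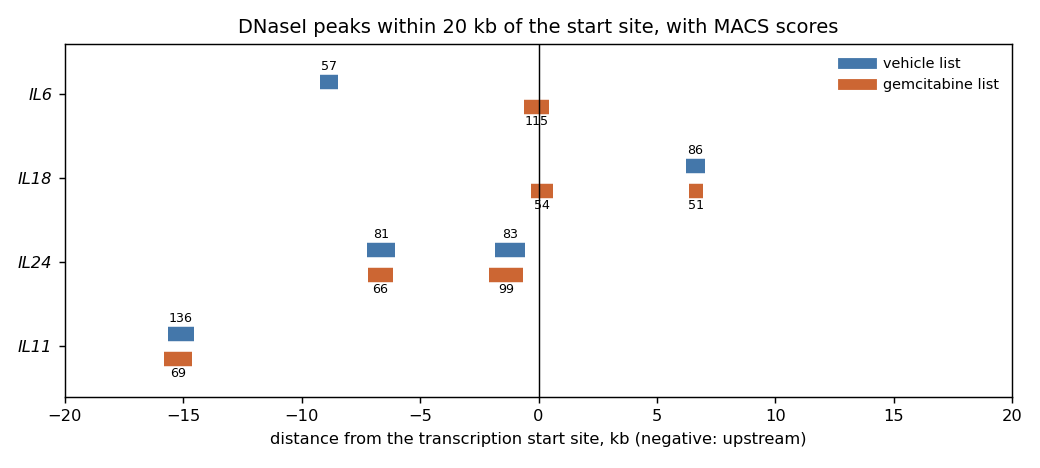
Bars are DNaseI peaks within 20 kb of the start sites of the 4 genes that had any, by distance from the start in kb, with the MACS score beside each. The IL6 and IL18 starts are covered by a peak in the gemcitabine list only, while IL24 and IL11 have peaks at about the same places in both.

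Library totals ranged from 13194533 to 15766237 fragments. Epithelial keratins were abundant, with KRT7 at 1491 to 1658 FPKM and KRT8 at 471 to 650 FPKM. Other markers of the same list, named after their values were seen, differed. EPCAM read 2.09 to 4.29 FPKM and CDH1 0.184 to 0.770 FPKM, whereas VIM, vimentin, read 385 to 476 FPKM and KRT18 336 to 472 FPKM. KRT19, a ductal keratin, was called higher (1.13, SE 0.21), from 45 and 45 to 94 and 88 fragments, and of 8 acinar and endocrine markers 4 (PRSS1, PTF1A, INS and GCG) were at 0 in every library. SST, somatostatin, was the highest of the 8, at 8 and 7 fragments with vehicle and 1 and 6 with gemcitabine (-0.96, edgeR adjusted p = 0.322), and CPA1, CELA3A and AMY2A had at most 1 fragment in a library. Of 17 leukocyte markers 4 had enough fragments to test and 1, CD68, a lysosomal protein found in macrophages and other cells, was called higher (0.94, SE 0.13). The summed FPKM of the 17 was 11.3 and 11.2 with vehicle and 20.9 and 25.2 with gemcitabine, most of it CD68. CD3E, CD3D and LYZ had 0 fragments in every library, and CD14 had 1 fragment in the 4 together. PTPRC, the pan-leukocyte CD45, had 4 and 2 fragments with vehicle and 9 and 5 with gemcitabine. Of the 3 stromal and endothelial markers tested LUM was called higher (0.77, SE 0.18) and DCN was not (-0.23). VWF, an endothelial glycoprotein, passed the adjusted p (2.01, edgeR adjusted p = 0.000894) on 8 and 9 against 34 and 30 fragments and was not called, since its means of 0.0761 and 0.234 FPKM differed by less than 1 FPKM. The part of these markers in the cytokine results was not tested.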

How the data were processed

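RNA-seq and DNaseI-seq of PANC1 cells were analysed from the deposited tables. Per the labels and the study's methods, single-end reads were placed on hg19 by the authors using TopHat2 (2.0.8), and genes were quantified with Cuffdiff (2.0.2) on the protein-coding Gencode 15 annotation, with a minimum of 10 reads. The deposited table gives, per gene and library, estimated counts of fragments (expected counts) and FPKM, as the authors' program wrote them. Its 2 columns of scaled fragments per sample were not used. The libraries of a condition are told apart by the table's index, which could not be matched to the labels' replicate numbers. Peaks were called by the authors with MACS at a p-value of 1e-05, and the deposited score is -10 times log10 of that p-value. Authors' own comparison columns were not used.

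Fragments were rounded to whole counts, genes with at least 10 over the 4 libraries were kept, and edgeR (4.0.16, TMM factors) was fitted in R 4.3.3 by condition alone. The test set the difference between conditions against the spread between these libraries within a condition, estimated with information shared over genes. Its p-values were then adjusted over all genes tested. Gencode 44 lifted to hg19 supplied start sites, exons and untranslated regions. The bases upstream come from the same genome, and the sequences upstream of the other 7 genes and the values of 1 listed gene are not reported here. Alternatives were DESeq2 (1.42.0), RLE factors, library totals, other filters, limma (3.58.1) on log2(FPKM + 1) or log2(FPKM + 0.1), and each library left out. limma was run with 3 variance models. The fit with a variance trend was written first and is the planned one, and the fits without a trend and with a robust trend were added after their results on these data had been seen. On simulated data, edgeR, DESeq2 and limma with a filter on low values recovered nearly all changed genes with few wrong calls. On the same data limma without a filter missed many of them under each of its 3 variance models. The simulation changed a small share of genes, all well counted, and gave each gene a fixed length. It therefore cannot show how the FPKM fits behave where lengths shift between libraries. Libraries with the same index did not deviate together (correlation -0.02), so no pairing by the index was seen. Whether such libraries were prepared together cannot be told from this value. The named genes were the 10 cytokines, up to 4 called genes of each list with the largest change, and up to 2 of the highest mean FPKM where fewer than 2 were called. The 10 genes, the lists and the motifs were chosen with earlier results of these data known.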

Additional observations from a re-analysis of the deposited data

How the results depend on the processing

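Under the alternatives that used fragment counts, 95 of 100 log2 fold changes of the 10 genes kept their direction and side of the threshold, 4 lost the adjusted p (all IL7) and 1 turned sign. That 1 was IL15, at 0.091 with library totals, and its sign also turned in every limma fit, at 0.165 with a pseudocount of 1 and 0.172 with a pseudocount of 0.1. The 7 genes called became 6 with vehicle library 1 left out and stayed 7 in the other fits with a library left out, a range of 6 to 7. With a replicate block on the table's index 7 of the 10 were called and no call changed among them, with 844 genes higher and 661 lower over the whole table against 845 and 658.

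limma without a filter called 0 of the 10 genes and 0 of the list genes with either pseudocount and a variance trend or a robust trend, and 0 with a pseudocount of 0.1 and no trend. With a pseudocount of 1 and no trend it called 4 of the 10 (IL11, IL1B, IL6 and LIF), 0 list genes, and 221 genes higher and 75 lower overall. With a mean of at least 0.1 FPKM, the planned trend called 894 genes higher and 326 lower, no trend 812 and 298 and a robust trend 927 and 334, and each called 6 of the 10. The variance models other than the planned trend were added after seeing the data. By the main criteria 10 list genes were called, against 35 at an adjusted p under 0.05 alone and a range of 5 to 14 with a library left out. Scaling by library totals moved the split of called genes to 1164 higher and 417 lower and the median of all genes to 0.12.

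Within 10 kb of a start, 3 genes had a vehicle peak and 3 a gemcitabine peak, with 0 in the gemcitabine list alone, and at a score of at least 100 the counts were 0 with vehicle and 1 with gemcitabine. The 4 regions found in both lists stayed 4 at 50% reciprocal overlap. Depth limits IL1A, IL1B and IL24, which rest on under 80 fragments in each library. A planned level order on the file's own lengths was not run, and the order per kilobase of the canonical transcript was added in its place.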
